A study of Homo sapiens with 12 samples.

Results

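The 7 genes described here encode the enzymes that break tyrosine down and 2 enzymes that renew a cofactor used to make it: TAT, HPD, HGD, GSTZ1, FAH, QDPR and PCBD1. They were chosen by name, with earlier results of these data known, and their counts were the sums over all listed 3′ regions of each gene. The 7 genes stand among 57736 genes in the count tables, of which 27326 had a count in any library. RNA was measured in HepG2 cells, an established line from a human liver carcinoma, and in Ls174 cells, an established line from a human colon carcinoma, both given as wild type. Each line was either left untreated (control) or cultured for 24 h with an extract of the red seaweed Hypnea musciformis (HME) at 0.7 mg/ml as the labels give it, with 3 libraries in each of the 4 groups. The methods of the study name a slightly higher concentration than the labels do. No other allele or agent was named for any group, and each line is a single tumor-derived culture, so a difference between the lines is a difference between 2 cultures and not between liver and colon. The study asked how the extract alters transcription in liver and colon cancer cells.

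Tyrosine is degraded mainly in hepatocytes. Tyrosine aminotransferase (TAT) removes the amino group, hydroxyphenylpyruvate dioxygenase (HPD) forms homogentisate, homogentisate dioxygenase (HGD) opens its ring, maleylacetoacetate isomerase (GSTZ1) turns the product over to fumarylacetoacetase (FAH), and FAH releases fumarate and acetoacetate. PCBD1 and QDPR bring tetrahydrobiopterin, the cofactor used in making tyrosine, back to its active form after each round.

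The libraries were of a 3′ kind, which reads each transcript from its poly(A) end, so the ends that were counted are shown first. The windows below, shown for 6 of the 7 genes, are 30 bases of GRCh37 on the strand of the gene, each ending at or near an annotated end of a GENCODE transcript that lies inside a counted region, with the poly(A) signal hexamer (AATAAA or ATTAAA, searched on the gene's strand in the last 50 bases) in capitals. HGD has 2 such ends with counts, the full-length one and an upstream one, and the windows of both are shown because its counts divide between them.
HGD, full-length end (HGD-201), chr3:120347020-120347049, minus strand: ttactcAATAAActtgctggtgttctgtgg
HGD, upstream end (HGD-204), chr3:120352183-120352212, minus strand: ttggatAATAAAaataatactgcttcaacc
TAT (TAT-201), chr16:71599564-71599593, minus strand: ttttcaAATAAAgtattactcaactttgta
HPD (HPD-201), chr12:122277431-122277460, minus strand: ctcccgATTAAAgcgtgccccggtccaata
GSTZ1 (GSTZ1-201), chr14:77797911-77797940, plus strand: gcgtgaATTAAActgaagcccaggcctcta
QDPR (QDPR-201), chr4:17488016-17488045, minus strand: tcctgaAATAAAtatttcaacacaagaaca
PCBD1 (PCBD1-201), chr10:72643266-72643295, minus strand: gtctcaAATAAAactattatatcacttggt

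The windows were set on the hexamer, which was AATAAA except in HPD and GSTZ1, and some other annotated ends inside the counted regions had none. Over 53821 annotated ends of protein-coding transcripts, 44.3% held AATAAA and 13.6% held ATTAAA in the last 50 bases, and 55.1% held either. The counted region of TAT also overlaps an exon of TAT-AS1 on the opposite strand, and since it is not stated whether strand was used in counting, reads of these 2 genes cannot be told apart. No exon of another gene overlapped the counted regions of the other 6 genes that held at least 30 counts.

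Total counts ran from 1790841 to 3656662 per library, and 13885 to 19354 genes had a count. Levels below are CPM, each count divided by the library's total after TMM scaling over the 12 libraries, and 1 count was worth 0.254 to 0.619 CPM. Because a 3′ library gives counts per transcript that do not grow with its length, CPM of different genes were set side by side without division by length. The 9 liver markers summed to 23974 to 29408 CPM in HepG2 control and 17498 to 19132 CPM in HepG2 HME libraries, and the 8 intestine markers to 395 to 469 CPM in Ls174 control, 375 to 417 CPM in Ls174 HME and 69.4 to 207 CPM over all HepG2 libraries. HepG2 control 2 and Ls174 control 1 stood apart from the other libraries of their groups. HepG2 HME 2 held 955 CPM of the 7 mesenchymal markers, nearly all from the collagen genes COL1A1 and COL1A2, against 3.10 to 14.9 CPM in the other HepG2 libraries. Ls174 control 3 held 550 counts of the liver markers and Ls174 HME 1 held 211, while Ls174 control 1, control 2 and HME 2 held 1 each and HME 3 held 30. Blood markers reached 201 to 719 CPM in HepG2, carried by LYZ and CD74, and at most 5.85 CPM in Ls174, and the 4 endothelial markers found reached at most 4.33 CPM in any library.

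HGD was the most abundant of the 5 breakdown enzymes in HepG2 cells and the only one whose level in Ls174 cells differed between HME and control without overlap. In HepG2 control libraries it stood at 320, 299 and 280 CPM (300 ± 19.7, SD, n = 3), and in HepG2 HME libraries at 244, 367 and 312 CPM (308 ± 61.3). The HME range enclosed the control range, and the fitted log2 fold change of HME over control was 0.05 (SE 0.30).

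In Ls174 control libraries HGD was near the limit of counting, at 5, 8 and 22 counts or 2.44, 2.47 and 5.60 CPM (3.50 ± 1.81). In Ls174 HME libraries it had 50, 50 and 58 counts or 18.1, 17.7 and 18.9 CPM (18.2 ± 0.646), every one above every control, and over all genes tested in Ls174 23.8% had groups that did not overlap. The ratio of the means was 5.21 and the log2 fold change 2.31 (SE 0.41). These are values of the contrast for which HGD was picked, and they are given as a description.

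**Figure D1:**
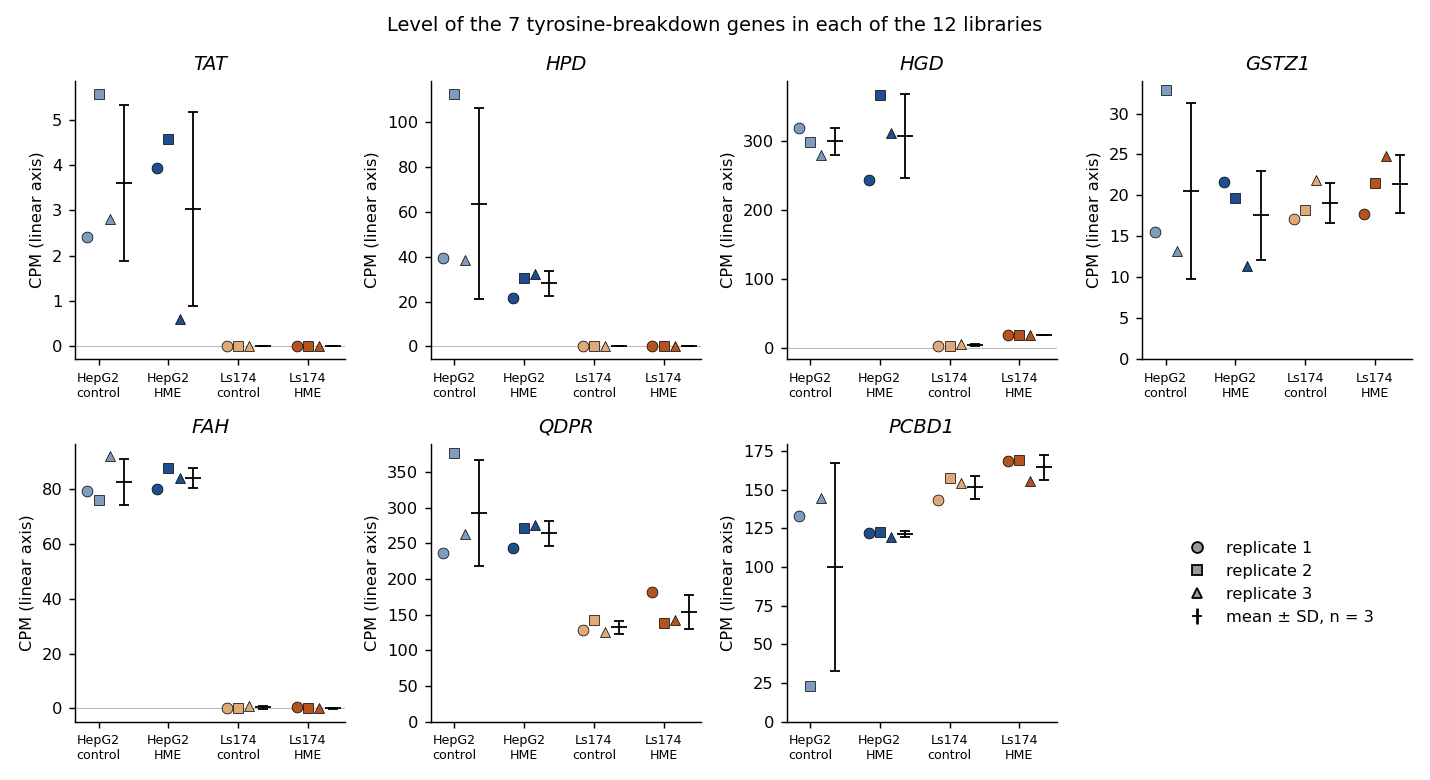
Level of each of the 7 genes (CPM, linear axis) in the 3 libraries of each group, with the mean and SD beside the points. HGD, HPD, FAH and TAT sit near or at 0 in Ls174 libraries, GSTZ1 is at a like level in all 4 groups, and HepG2 control 2 (square) lies apart from the other controls in HPD, GSTZ1, QDPR and PCBD1.

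The Ls174 library with the highest HGD level among the controls, control 3, was also the one with the most liver marker counts. Its liver marker sum was 140 CPM, which is 0.533% of the mean of HepG2 control cells, and its HGD level was 1.87% of the HepG2 control mean. In Ls174 HME 1 the liver markers stood at 0.291% of the HepG2 control mean and HGD at 6.04%. In Ls174 HME 2 the liver markers stood at 0.00135% and HGD at 5.90%, and in HME 3 at 0.0373% and 6.32%, so HGD was as high in these 2 libraries as in HME 1. Without control 3 and HME 1 HGD had 13 counts in the 2 remaining control libraries and 108 in the 2 remaining HME libraries, a ratio of means of 7.45. Without control 3 alone the ratio was 7.43, and without control 1, which detected the fewest genes, it was 4.52. The part of the liver marker counts in the HGD values of control 3 and HME 1 was not tested.

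**Figure D2:**
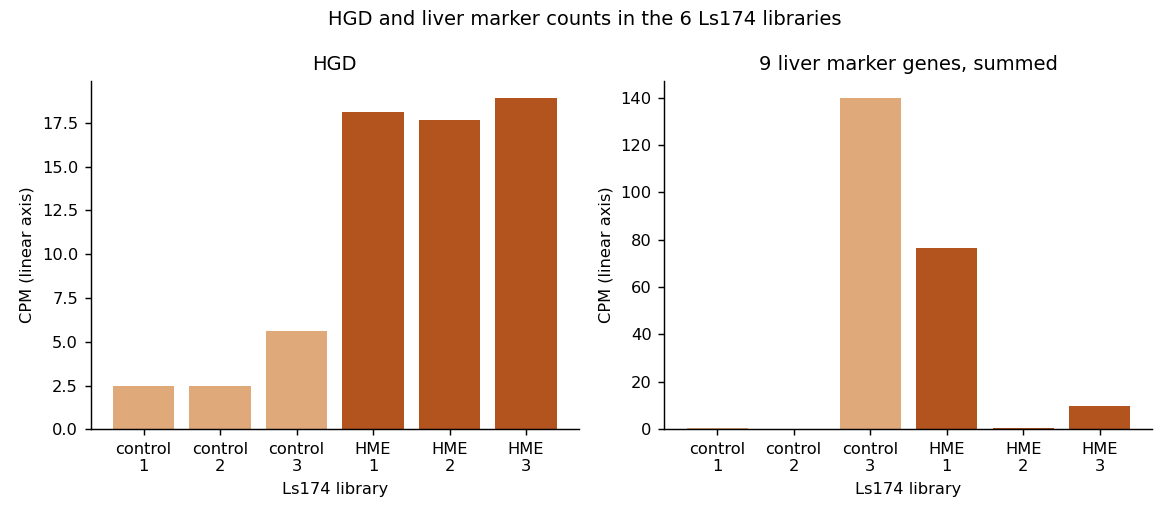
HGD (left) and the sum of the 9 liver markers (right), both in CPM on linear axes, in the 6 Ls174 libraries, 1 bar a library. HGD is at 17.7 to 18.9 CPM in the 3 HME libraries, whereas the liver markers are high in control 3 (140 CPM) and HME 1 (76.4 CPM) and low in the other 4.

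HPD, the step before HGD, was the gene of the route whose level in HepG2 cells did not overlap between HME and control. It stood at 39.6, 113 and 38.6 CPM in control (63.6 ± 42.5) and at 21.6, 30.6 and 32.2 CPM in HME libraries (28.1 ± 5.70). All 3 HME values were below all 3 controls, by a wide margin only against control 2, and over all genes tested in HepG2 30.8% had groups that did not overlap. The log2 fold change was −1.19 (SE 0.48) and the ratio of means 0.442, which became 0.721 without control 2. In Ls174 cells HPD had 0 counts in all 6 libraries. Liver marker sums were also lower in HepG2 HME than in HepG2 control libraries, as given above, and whether the 2 differences are linked was not tested.

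TAT, the first and usually rate-limiting step, was scarcely detected. It had 9, 9 and 7 counts in HepG2 control (3.60 ± 1.72 CPM), 10, 13 and 1 in HepG2 HME (3.03 ± 2.13 CPM) and 0 in the 6 Ls174 libraries. The HepG2 ranges overlapped. TAT did not pass the filter on low counts in any comparison with all its libraries, but it did in some fits that left out 1 library.

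FAH, the last step, was at 79.4, 76.2 and 92.0 CPM in HepG2 control (82.5 ± 8.35) and at 80.2, 87.8 and 84.2 CPM in HepG2 HME libraries (84.1 ± 3.79). The log2 fold change was 0.04 (SE 0.28), and the HME libraries lay within the control range. In Ls174 cells FAH had 4 counts in control 3 and 1 count in HME 1, the 2 libraries with the most liver marker counts, and 0 in the other 4.

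GSTZ1, which also acts outside this route on other substrates, was the one enzyme of the 5 at a like level in both lines. HepG2 control libraries held 15.5, 32.8 and 13.3 CPM (20.5 ± 10.7) and HepG2 HME libraries 21.6, 19.7 and 11.3 CPM (17.5 ± 5.46). Ls174 control libraries held 17.1, 18.2 and 21.9 CPM (19.1 ± 2.50) and Ls174 HME libraries 17.7, 21.6 and 24.8 CPM (21.4 ± 3.54). The ranges of all groups overlapped. The log2 fold change of HME over control was −0.20 (SE 0.46) in HepG2 and 0.15 (SE 0.26) in Ls174.

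QDPR, the dihydropteridine reductase that regenerates tetrahydrobiopterin, was at 237, 377 and 264 CPM in HepG2 control (292 ± 74.5) and at 243, 272 and 276 CPM in HepG2 HME (264 ± 18.0). It was at 129, 143 and 126 CPM in Ls174 control (133 ± 8.82) and at 181, 139 and 142 CPM in Ls174 HME libraries (154 ± 23.6). HME and control overlapped in both lines, with log2 fold changes of −0.15 (SE 0.32) and 0.21 (SE 0.19), while every HepG2 library was above every Ls174 library.

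PCBD1, the dehydratase of the same cofactor cycle, was at 133, 22.9 and 145 CPM in HepG2 control (100 ± 67.1) and at 122, 123 and 119 CPM in HepG2 HME (122 ± 1.88). It was at 143, 157 and 154 CPM in Ls174 control (152 ± 7.47) and at 169, 169 and 155 CPM in Ls174 HME libraries (164 ± 7.83). HepG2 control 2 held 0.165 of the mean of the other 2 controls, and the spread of the HepG2 controls is set by it. The log2 fold change of HME over control was 0.32 (SE 0.53) in HepG2, which became −0.12 without control 2, and 0.11 (SE 0.17) in Ls174.

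Control 2 also stood apart in the other direction for HPD, GSTZ1 and QDPR, at 2.89, 2.28 and 1.51 times the mean of the other 2 controls, whereas HGD and FAH were at 0.997 and 0.889 times that mean. The 2 genes with the steadiest HepG2 controls were thus HGD and FAH.

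Of the 7 genes, 6 passed the filter in the HepG2 comparison and 0 were called at an adjusted p under 0.05 by edgeR, which called 3.31% of all 11343 tested genes, or by DESeq2, which called 9.11%. The limits of the study's methods are a p under 0.05 before adjustment and a log2 change of more than 0.58. By these limits 1 of the 6, HPD, was called, where 22.2% of all tested genes were called on the edgeR p. On the p of a binomial test run here on counts summed over replicates, 40% were called. The methods also name a binomial test, but the study reported fewer changed genes in each line, out of a larger filtered set. In Ls174 cells 4 of the 7 passed the filter and 1, HGD, was called at an adjusted p under 0.05 (1.18% of 11319 genes) and by the second rule (12% of genes on the edgeR p and 23% on the binomial p). HGD passed the filter in Ls174 through its HME counts, as its control libraries were near the limit of counting. The call of HGD at an adjusted p under 0.05 was lost in 5 of the 6 fits that left out 1 library, and held without Ls174 control 1. Since the genes were picked with these contrasts in view, nothing is read from these counts. The median log2 fold change of the members tested was −0.06 in HepG2 (−0.04 over all genes) and 0.18 in Ls174 (0.00 over all genes).

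**Figure D3:**
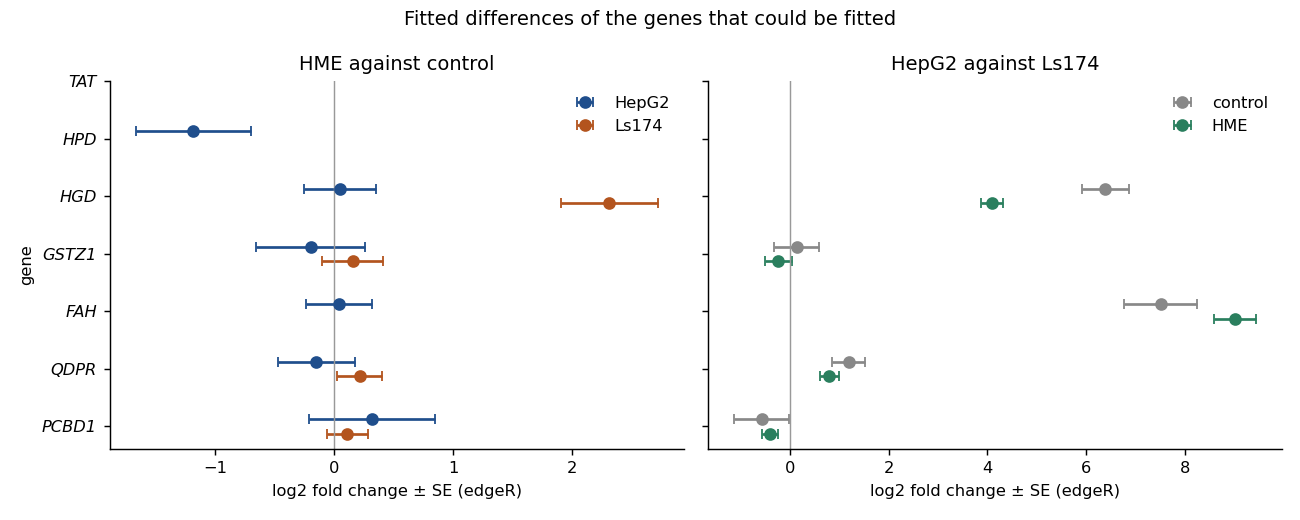
Fitted log2 fold changes with their SE (edgeR) of HME over control in each line (left) and of HepG2 over Ls174 in control and HME libraries (right). TAT was not fitted, and HPD is left out on the right because it had 0 counts in Ls174. HGD is near 0 in HepG2 and at 2.31 in Ls174 on the left, and on the right HGD and FAH lie between 4.09 and 9.03.

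The fitted response of HGD was thus 0.05 in HepG2 and 2.31 in Ls174. In the fit of all 12 libraries, the log2 response in HepG2 minus that in Ls174 was −2.27 (SE 0.44) for HGD, and 1 of the 6 members tested was called at an adjusted p under 0.05, where 0.644% of 13040 genes were called. The same difference was −0.34 (SE 0.53) for GSTZ1, −0.37 (SE 0.36) for QDPR and 0.15 (SE 0.62) for PCBD1. For HPD, FAH and TAT it has no usable value, as their Ls174 counts were at or near 0.

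Between the lines, 5 of the 7 genes did not overlap in control cells, all higher in HepG2: TAT, HPD, HGD, FAH and QDPR. Over all genes tested, 42.6% did not overlap between the lines and 22.3% were higher in HepG2 without overlap. Of the 6 that could be fitted, 4 were called at an adjusted p under 0.05. Over all 11907 genes tested, 23.5% were called in either direction and 14.2% as higher in HepG2. HPD, HGD and FAH passed the filter through their HepG2 counts, and the genes were picked with earlier results known. Nothing is therefore read from these counts of calls. HGD was 85.5-fold higher by the ratio of means, with a log2 fold change of 6.39 (SE 0.48). FAH had 649 counts in HepG2 control against 4 in Ls174 control, a ratio of 191 per scaled total (95% exact interval 74.1 to 702, counting error only). HPD was at least 43.4-fold higher and TAT at least 2.45-fold higher, taking Ls174 at 3 counts per library (1.47 CPM in the shallowest). Without HepG2 control 2 the bound was 26.6-fold for HPD and 1.78-fold for TAT. QDPR was 2.21-fold higher, with a log2 fold change of 1.19 (SE 0.34), and its call was lost in 4 of the 6 fits that left out 1 library. GSTZ1 differed by 0.13 (SE 0.46) and PCBD1 by −0.58 (SE 0.56) on the log2 scale, and both overlapped.

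In HME-treated cells the same 5 genes were higher in HepG2 without overlap, and PCBD1 was lower without overlap, where 61.8% of all genes tested did not overlap and 30.9% were higher in HepG2 without overlap. At an adjusted p under 0.05, 4 of 6 were called, all higher in HepG2. Over all 11914 genes tested, 54.6% were called in either direction and 28.6% as higher in HepG2. HPD and FAH again passed the filter through their HepG2 counts, and nothing is read from these counts of calls. HGD was 16.9-fold higher with a log2 fold change of 4.09 (SE 0.22), a smaller distance between the lines than in control cells. HPD was at least 25.9-fold and TAT at least 2.79-fold higher than 3 counts per library, by their means. TAT had only 1 count in HepG2 HME 3 (0.597 CPM), below that floor of 1.09 CPM, so its lack of overlap rests on 1 count there. FAH had 595 counts against 1, a ratio of 729 (95% exact interval 130 to 28829). QDPR was 1.71-fold higher (log2 0.79, SE 0.19), GSTZ1 differed by −0.24 (SE 0.28) and PCBD1 by −0.42 (SE 0.16) on the log2 scale. The 2 comparisons between lines share no libraries with each other, but each shares its libraries with the comparisons within a line.

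The make-up of the route differed between the lines accordingly. Among the summed CPM of TAT, HPD, HGD, GSTZ1 and FAH, HGD made up 64.2% ± 6.73 in HepG2 control and 69.5% ± 3.35 in HepG2 HME libraries, and FAH 17.8% ± 3.55 and 19.3% ± 2.18. HPD made up 13.0% ± 7.26 and 6.38% ± 0.817. In Ls174 cells GSTZ1 made up 84.1% ± 6.35 in control and 53.6% ± 4.04 in HME libraries, and HGD 14.7% ± 4.29 and 46.1% ± 3.48. The 5 enzymes summed to 470 ± 51.1 CPM without and 440 ± 68.8 CPM with HME in HepG2, and to 22.9 ± 4.88 and 39.7 ± 3.80 CPM in Ls174 (all SD, n = 3). In bulk RNA, fewer cells with a transcript and less of it per cell cannot be told apart.

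By level, the order in HepG2 control was HGD, QDPR, PCBD1, FAH, HPD, GSTZ1 and TAT. HGD and QDPR overlapped, as did PCBD1 with FAH and FAH with HPD, through control 2 in each case, and TAT was below every other gene. In Ls174 control the order was PCBD1, QDPR, GSTZ1, HGD, FAH, then HPD and TAT at 0, and no neighbours among the first 5 overlapped.

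HGD counts came from 2 places. The region at the full-length end (chr3:120346823-120347376) held 3957 of all HGD counts and covers the last coding bases and the 3′ UTR, and the upstream region (chr3:120351797-120352437) held 764 and contains the ends of the short transcripts HGD-204 and HGD-210. In HepG2 control libraries the upstream region took 8.95%, 13.0% and 19.6% of HGD counts, and in HepG2 HME libraries 24.5%, 13.9% and 22.9%. The means were 13.9% and 20.4%, and the ranges overlapped. An exact permutation test of the difference of 6.56 percentage points gave p = 0.2 (two-sided), in a design of 3 against 3 that cannot go below 0.1 and so cannot pass 0.05. In Ls174 cells it took 12 of 35 counts in control and 28 of 158 in HME libraries, with single control libraries from 0% to 75%, too few counts to compare. Both ends carried more counts in Ls174 HME than in Ls174 control, 129 against 23 at the full-length end and 28 against 12 upstream. Over all libraries the region at the full-length end held 83.2% of HGD counts. The main region of FAH held 86.3% of its counts, that of PCBD1 96.3%, those of HPD, QDPR and GSTZ1 99.7%, 99.8% and 99.8%, and that of TAT all of them. A region can span several annotated ends, which these counts do not resolve.

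**Figure D4:**
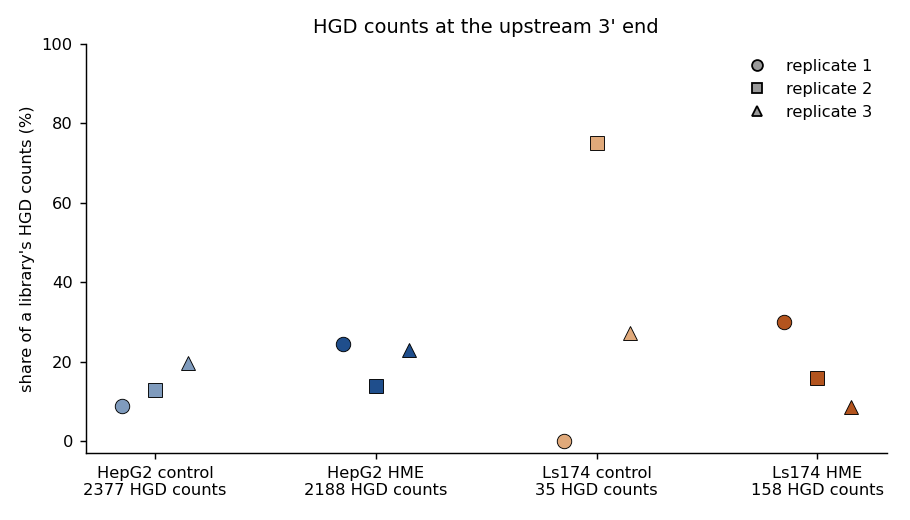
Share of each library's HGD counts (%) that lay in the upstream region, by group, with the summed HGD count of the group under its name. HepG2 shares lie between 8.95% and 24.5% in both groups, and Ls174 control shares scatter from 0% to 75% on 35 counts in all.

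Across the 12 libraries, the 5 genes of 13040 whose log2 CPM followed HGD most closely were MYO5A (a myosin motor), SMYD2 (a lysine methyltransferase), FBXO2 (an F-box protein), FABP1 (the liver fatty acid binding protein) and AKR1C1 (an aldo-keto reductase), with Pearson's r of 0.985, 0.984, 0.982, 0.980 and 0.979. All 5 had higher means in HepG2 than in Ls174, and the values of r mainly restate that difference, as 6 libraries of each line share it. The pick also used the Ls174 HME libraries, in which HGD was higher, so the Ls174 values of these genes are a description. In Ls174 cells AKR1C1 was at 43.0, 28.4 and 88.8 CPM in control and at 287, 281 and 277 CPM in HME libraries. FBXO2 was at 0, 2.16 and 3.05 CPM in control and at 12.7, 4.59 and 4.57 CPM in HME libraries, and MYO5A was at 0 in all controls and at 0.724, 0.353 and 1.31 CPM in HME libraries. FABP1, itself expressed in liver and gut, was at 0, 1.85 and 10.4 CPM in control and at 12.3, 9.19 and 10.5 CPM in HME libraries, and SMYD2 was at 15.6, 14.8 and 20.1 and at 24.3, 19.4 and 22.9 CPM. AKR1C1, FBXO2 and MYO5A thus did not overlap, where 23.8% of all genes tested in Ls174 did not overlap, and MYO5A was near the limit of counting. FABP1 and SMYD2 overlapped through control 3. That library was the control with the most liver marker counts and the highest of the controls in each gene but MYO5A. The largest FBXO2 value was that of HME 1, which also held liver marker counts. Among the members r with HGD was 0.946 for FAH, 0.937 for HPD, 0.918 for QDPR, −0.143 for GSTZ1 and −0.436 for PCBD1.

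Genes around the route were taken from 7 lists with 87 genes in all, which were written with earlier results of these data known. In HepG2 cells 60 of the 87 were tested and 4 were called by edgeR, 3 higher and 1 lower with HME, with 9 higher and 12 lower at an unadjusted p under 0.05. DESeq2 called 10 of the 60, 5 higher and 5 lower. Over all 11343 genes tested edgeR called 3.31% and DESeq2 9.11%, and 2517 had an unadjusted p under 0.05 in edgeR. Among 6 genes of tetrahydrobiopterin supply, 1 rose: PTS, which makes the precursor of tetrahydrobiopterin, went from 24.1, 7.43 and 17.7 CPM to 62.1, 57.6 and 81.2 CPM (log2 2.02, SE 0.41, edgeR adjusted p = 0.0274). Its HME and control values did not overlap, as in 30.8% of all genes tested in HepG2. Its call was lost in 4 of the 6 fits that left out 1 library (adjusted p of at most 0.128).

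Of 8 carriers of aromatic amino acids, 6 were tested and 1 rose: SLC3A2, the heavy chain of the large neutral amino acid carriers, went from 89.0, 78.6 and 90.0 to 239, 217 and 239 CPM (log2 1.44, SE 0.28, adjusted p = 0.0252). Of 37 genes for the breakdown of other amino acids and the urea cycle, 24 were tested and 1, CTH, was called. CTH, which forms cysteine from cystathionine, went from 2.94, 1.24 and 2.81 to 14.5, 17.6 and 17.3 CPM (log2 2.75, SE 0.44, adjusted p = 0.0108). It had only 20 counts over the 3 control libraries against 116 with HME, and it passed the filter through its HME counts. Of 8 liver transcription factors, the glucocorticoid receptor among them, 7 were tested and 1 fell: CEBPA, a factor of hepatocyte differentiation, went from 166, 318 and 113 to 20.8, 52.3 and 47.2 CPM (log2 −2.33, SE 0.51, adjusted p = 0.0400). In each of these 3 genes every HME value lay on one side of all controls, as in 30.8% of all genes tested in HepG2. Their calls were lost in 5, 2 and 4 of the 6 fits that left out 1 library. The edgeR adjusted p in those fits was at most 0.131, 0.0629 and 0.155. Without HepG2 control 2 the log2 fold change of CEBPA was −1.73. DESeq2 also called CEBPB, another of the transcription factors, higher (edgeR log2 1.69, adjusted p = 0.0588). It called ASL and GCAT of the other amino acid list lower (edgeR log2 −1.26 and −1.85, adjusted p = 0.0903 and 0.0908). CEBPB in HepG2, ASL and GCAT are named after their values were seen.

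In the other 3 lists 0 genes were called by edgeR in HepG2, with 5 genes at an unadjusted p under 0.05 and 3 called by DESeq2. GOT1 and DDC were called by edgeR without HepG2 control 2. The 3 called by DESeq2, which also had the lowest p in edgeR, were GOT1, the cytosolic aspartate aminotransferase that also accepts tyrosine (log2 1.09, SE 0.30, adjusted p = 0.0791), DDC, the aromatic amino acid decarboxylase (−1.30, SE 0.34, adjusted p = 0.0711), and BDH2, a short-chain dehydrogenase (−1.45, SE 0.43, adjusted p = 0.0955). The medians of the 7 lists ran from −0.45 (other amino acids and urea cycle) to 0.34 (other transaminases), against −0.04 over all genes.

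In Ls174 cells 53 of the 87 genes were tested and 0 were called by edgeR, which called 1.18% of all genes tested. At an unadjusted p under 0.05 there were 4 higher and 4 lower, against 1534 of all 11319 genes. DESeq2, which called 3.87% of all genes tested, called 3 list genes. They were CBS (higher) and SLC7A5 and QPRT (lower), of which QPRT is named after its values were seen. The lowest adjusted p of each list belonged to PTS (log2 0.62, adjusted p = 0.389), CCBL2, a kynurenine aminotransferase (0.75, adjusted p = 0.333), DDC (−2.16, adjusted p = 0.193), ACAT2, an acetoacetyl-CoA thiolase (−0.50, adjusted p = 0.330), SLC7A5, the light chain that pairs with SLC3A2 (−2.10, adjusted p = 0.0980), CBS, the enzyme before CTH (1.14, adjusted p = 0.0911), and FOXA2 (0.57, adjusted p = 0.391). The change of DDC rests on few counts, 9, 11 and 20 in Ls174 control and 3, 4 and 1 in Ls174 HME libraries. DDC passed the filter there through its control counts. DDC, SLC7A5 and CBS were called without Ls174 control 1. In that library SLC7A5 stood at 1163 CPM against 346 and 375 CPM in the other controls. Without that library the log2 fold change of SLC7A5 was −1.28.

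**Figure D5:**
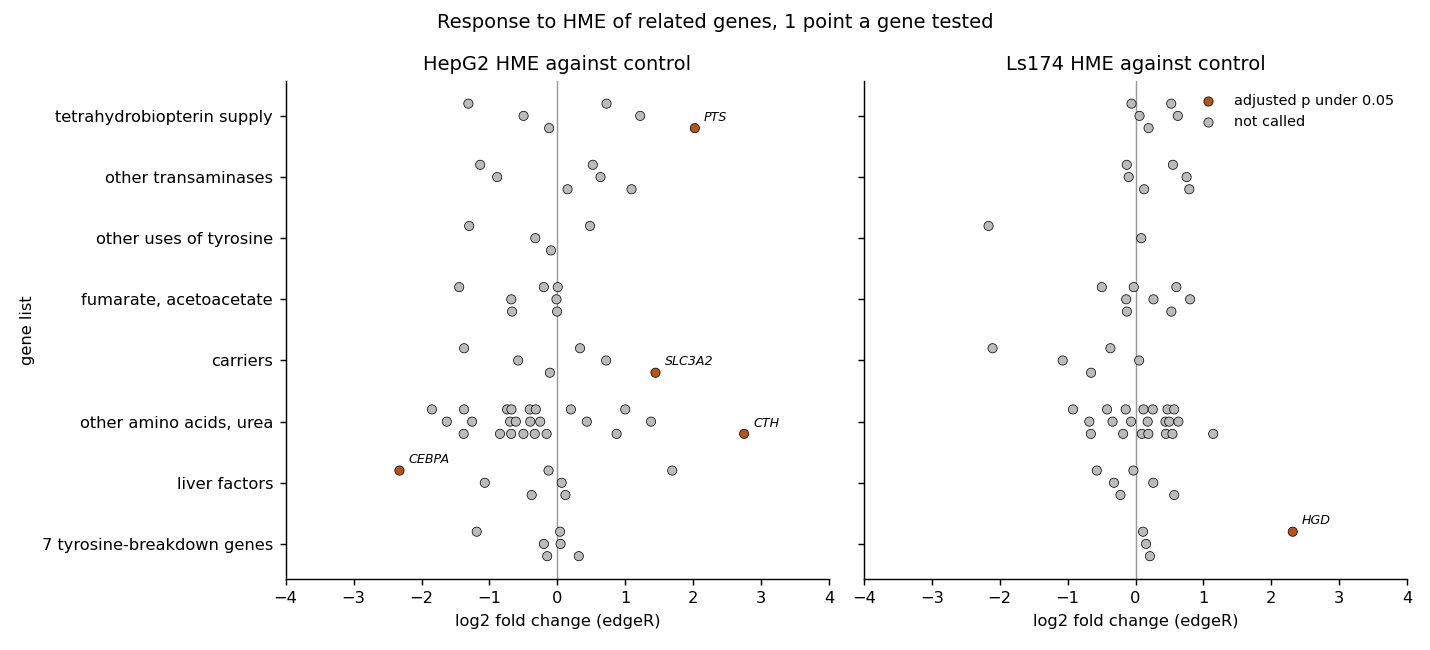
Fitted log2 fold change of HME over control of each tested gene (1 point a gene) in the 7 lists and among the 7 tyrosine-breakdown genes, in HepG2 (left) and Ls174 (right), with genes at an adjusted p under 0.05 in dark color and named. PTS, SLC3A2 and CTH (higher) and CEBPA (lower) are called in HepG2, and HGD in Ls174.

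Over all 13040 genes tested, edgeR called the difference of the 2 responses for 0.644%, and 1718 genes had an unadjusted p under 0.05. The difference was called for 0 of 64 list genes by edgeR, with 6 higher and 9 lower at an unadjusted p under 0.05. By DESeq2, which called 3.04% of all genes tested, it was called for 6. It was 1.36 for PTS (adjusted p = 0.282), 1.37 for SLC3A2 (0.0932 adjusted p), −1.98 for CBS (0.0786 adjusted p), −2.10 for CEBPA (0.204 adjusted p), −1.65 for CCBL2 (0.147 adjusted p), −1.35 for BDH2 (0.377 adjusted p) and 0.84 for DDC (0.619 adjusted p), all on the log2 scale. Without Ls174 control 1 it was called for SLC3A2 and for CEBPA, at −2.80, and without HepG2 control 1 for CBS.

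Between control cells of the lines, 63 list genes were tested, and 23 were higher and 3 lower in HepG2 by edgeR. Over all 11907 genes tested edgeR called 1687 higher and 1111 lower. DESeq2 called 23 list genes higher and 5 lower, and 29.1% of all genes tested. Genes at 0 in Ls174, such as ALDH7A1 and KYNU, passed the filter through their HepG2 counts. Among other uses of tyrosine 3 of 4 tested genes were higher in HepG2, the monoamine oxidases MAOA and MAOB (log2 4.69, SE 0.71) and DDC (2.78, SE 0.42). MAOA had 206 counts against 2 in Ls174, a ratio of 121 per scaled total (95% exact interval 33.1 to 1006), and MAOB was at 5.28 without Ls174 control 2. Among carriers 3 of 6 were higher, SLC6A14 (4.74, SE 0.68), SLC43A1 (2.43, SE 0.57) and SLC16A10 (1.40, SE 0.44). SLC43A1 was at 389 CPM in HepG2 control 2 against 98.9 and 113 CPM in the other controls, and its log2 fold change without that library was 1.48. The call of SLC16A10 was lost in all 6 fits that left out 1 library (adjusted p of at most 0.134). Of 27 tested genes for other amino acids and the urea cycle 13 were higher and 2 lower. The 3 largest, ALDH7A1 of lysine breakdown, KYNU of tryptophan breakdown and FTCD of histidine breakdown, had means of 89.3, 24.5 and 67.0 CPM in HepG2 control, where FTCD was at 44.4, 129 and 27.7 CPM and thus highest in control 2. ALDH7A1 and KYNU were at 0 in all Ls174 control libraries, and so at least 60.9-fold and 16.7-fold higher than 3 counts per library. Without HepG2 control 2 these bounds were 67.3-fold and 23.1-fold. Of the transcription factors 4 of 7 were higher, among them CEBPA (3.30, SE 0.61, and 4.01 without Ls174 control 1), HNF4A (2.20, SE 0.50) and the glucocorticoid receptor NR3C1. NR3C1 was at 20.04, 52.6 and 23.7 CPM in HepG2 control and at 0 in all Ls174 control libraries. It was thus at least 21.9-fold higher, a bound that became 14.9-fold without HepG2 control 2. OXCT1, which activates acetoacetate for use outside the liver, was lower in HepG2 (−2.66, SE 0.52), and of the genes for tetrahydrobiopterin supply and of the other transaminases 0 were called by edgeR, with 0 at an unadjusted p under 0.05 and 0 called by DESeq2.

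Between HME-treated cells of the lines, 62 list genes were tested, and 26 were higher and 20 lower in HepG2 by edgeR. Over all 11914 genes tested edgeR called 3405 higher and 3098 lower. DESeq2 called 26 list genes higher and 16 lower, and over all genes tested 3303 higher and 2883 lower. Of 6 genes for tetrahydrobiopterin supply, the co-chaperone DNAJC12 was higher in HepG2, with 69 counts against 2 in Ls174, both in HME 1 (a ratio of 42.3, 95% exact interval 11.3 to 356). PCBD2, the paralog of PCBD1, was lower (log2 −0.70, SE 0.27, adjusted p = 0.0487), a call lost in 5 of the 6 fits that left out 1 library (adjusted p of at most 0.147). Among genes for the use of fumarate and acetoacetate 6 of 8 were lower in HepG2 by edgeR and 5 by DESeq2. Foremost were OXCT1 (−3.10, SE 0.40), the ketone body dehydrogenase BDH1 (−1.73, SE 0.22) and the fumarase FH (−1.39, SE 0.23). Of the other transaminases and tautomerases 3 were called, CCBL2 (−1.89, SE 0.27), MIF (−0.50, SE 0.19, adjusted p = 0.0462) and GOT1 (0.49, SE 0.19, adjusted p = 0.0457), and the calls of MIF and GOT1 were each lost in 4 of the 6 fits that left out 1 library (adjusted p of at most 0.142 and 0.207). MAOB, DDC, SLC6A14, SLC16A10 and SLC43A1 were again higher in HepG2, by log2 3.96, 3.60, 5.83, 1.86 and 1.41, with MAOB at 4.69 without Ls174 HME 1 and SLC6A14 at 7.03 without Ls174 HME 2. MAOA had 144 counts against 3 in Ls174 (a ratio of 58.8, 95% exact interval 19.7 to 288). Of 25 tested genes for other amino acids and the urea cycle 12 were higher and 10 lower in HepG2 by edgeR. The 3 with the largest differences, KYNU, FTCD and ALDH7A1, had 63.3, 21.9 and 62.4 CPM in HepG2 HME. KYNU and FTCD were at 0 in Ls174 HME (at least 58.3-fold and 20.2-fold), while ALDH7A1 had 2 counts there, both in HME 1. All 3 passed the filter through their HepG2 counts. Of 7 tested transcription factors 5 were higher and 1 lower in HepG2 by edgeR. Among the higher were HNF4A (2.10, SE 0.22), CEBPB (1.24, SE 0.27) and NR3C1 (34.7 CPM against 1 count in Ls174 HME).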

How the data were processed

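The authors prepared 3′ libraries (QuantSeq) of 12 RNA samples, sequenced them on an Ion Proton, checked reads with FASTQC, aligned them to hg19 (GRCh37) with Hisat2 and processed them with metaseqR2; the submitters' processing notes also name Bowtie2 and Trimmomatic. The deposited values are raw counts per 3′ region, without normalization, in 144910 regions. How multiply aligned reads and strand were treated is not given in the sources used here. Here the regions of a gene were summed. Nothing says whether replicates came from separate cultures in the labels, although the study calls them biological, so p-values measure the spread between these samples.

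Tests used edgeR 4.0.16 in R 4.3.3 (TMM, filterByExpr, quasi-likelihood F test, Benjamini-Hochberg over all genes tested, called at an adjusted p under 0.05), fitted on the libraries of each comparison, or on all 12 for the difference of responses. This replaces the study's binomial test with limits on p and fold. As alternatives the limits were set on the edgeR p, and a binomial test on summed counts was called at an adjusted p and, added after seeing the data, by those limits. SEs come from the F statistic. The fit was also checked on counts simulated for each comparison, with 200 genes changed. Levels are TMM-scaled CPM over 12 libraries. Ratio and count intervals are exact at 95% and cover counting error only; a count of 0 was set to 3 counts per library. Replicate pairs all differed beyond sampling noise (chi-square per degree of freedom 4.44 to 54.1).

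The 7 members, the 7 lists and 5 marker lists (liver, intestine, mesenchymal, blood, endothelial; 35 of 36 marker genes were found), and the tests were chosen with earlier results of these data known. From each list the text names the genes called (at most 5), or else that with the lowest p; between lines the 3 largest called; and the 5 genes most correlated with HGD over log2 CPM with a prior count of 2. Alternatives were DESeq2 1.42.0, RLE, upper-quartile and library-size scaling, no filter beyond 1 count, the replicate number as a block, a single fit of 12 libraries, regions of a single gene only, the binomial test, the study's limits, and leaving out each library. Leaving out HepG2 control 2 with HME 2, and Ls174 control 3 with HME 1, was also added after seeing the data. Sequences were read from the GRCh37 genome with GENCODE annotation lifted to it. Some genes and 1 sequence window are not reported here.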

Additional observations from a re-analysis of the deposited data

Results flagged for a closer look

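The log2 response of HGD to HME in HepG2 minus that in Ls174 was −2.27 (SE 0.44), a difference between the lines in the fit of all 12 libraries that was past an adjusted p of 0.05. It rests on 35 HGD counts in the 3 Ls174 control libraries and 158 in the 3 Ls174 HME libraries. The gene was chosen with this difference known. Without Ls174 control 3 and HME 1, the libraries with the most liver marker counts, the difference was −2.87 (SE 0.49) and stayed past that threshold. Over the 12 fits that left out 1 library it ran from −2.83 to −2.06 and was past the threshold in 4.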

How the results depend on the processing

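The number of genes called in HepG2 (375, of them 314 higher and 61 lower with HME) was 1033 with DESeq2, 1407 without the filter, 807 in a single fit of 12 libraries, 7138 by the adjusted p of the binomial test, 4536 by the study's limits on its unadjusted p, 2517 by the same limits on the edgeR p, 701 without control 2 and HME 2, and 95 to 921 when 1 library was left out, with 921 without control 2, 248 without control 1 and 95 to 155 without control 3 or an HME library. Upper-quartile scaling gave 290 higher and 113 lower and library size alone 245 and 161, with the median of all genes at −0.11 and −0.20. In Ls174 (134 genes) it was 438 with DESeq2, 604 without the filter, 5534, 2601 and 1353 by the same 3 rules, 0 with the replicate block (1192 at an unadjusted p under 0.05), 0 by edgeR without control 3 and HME 1 (1017 unadjusted), and 0 to 979 when 1 library was left out: 979 without control 1, 2 without control 2, 10 without control 3 and 0 without each HME library (854 to 1175 unadjusted). Between control cells (2798 genes) a single fit gave 4631 and leaving out 1 library 2134 to 3367; between HME-treated cells (6503, with 3405 higher in HepG2) the range was 5854 to 6653, and library size alone gave 2658 higher and 4119 lower and upper-quartile scaling 2923 and 3769, with the median of all genes at −0.28 and −0.17. The difference of responses was called for 84 genes, for 397 with DESeq2, 49 by library size, 367 without the filter, 16 with the replicate block, 1718 by the study's limits on the edgeR p, 19 without Ls174 control 3 and HME 1, and 17 to 143 when 1 library was left out.

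Of the 7 members, 0 were called in HepG2, 1 (HPD) by the binomial test and by the study's limits on either p, and 0 to 0 on leaving out 1 library. In Ls174 1 (HGD) was called, 0 with the replicate block and without control 3 and HME 1, 2 (HGD and QDPR) by the binomial test, and 0 to 1 on leaving out 1 library, although the log2 fold change of HGD stayed between 2.10 and 2.87 throughout. Between lines 4 were called in both comparisons, with 3 to 4 and 4 to 5 on leaving out 1 library, and PCBD1 was also called lower in HepG2 HME under 3 alternatives. The added call on leaving out 1 library was that of TAT, in 3 fits between HME-treated cells that it entered through its HepG2 counts. For the difference of responses 1 was called, 0 with the replicate block and 0 to 1 on leaving out 1 library. The replicate numbers are shared between the groups, and the labels do not say whether they pair the samples. The deviations of samples with the same number correlated at −0.167 to 0.0884 in HepG2 and −0.0541 to −0.00777 in Ls174. The values were −0.406 to 0.126 between control cells and −0.0216 to 0.0472 between HME-treated cells. Not every sample correlated best with its own number in any comparison. These correlations cannot settle whether the samples were paired. The causes of these shifts were not tested beyond the libraries named. For genes under about 3 counts a library, such as TAT, FAH and HPD in Ls174, HME and control could not be compared at this depth.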
